A study of Mus musculus with 192 samples.

Results

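The ventral midline of the mouse brain section was compared with the tissue on its sides. The comparison set 17 arrays from 6 midline voxels (A5, A6, A7, B5, B6 and B7) against 30 arrays from 12 flank voxels, which are all other measured positions of rows A and B in columns 2 to 4 and 8 to 11. Together these are 47 of the 192 arrays and 18 of the 68 grid positions of the series. A voxel is a small cube of tissue named by its grid row and column. Arrays were put in the groups by the position in their labels. The labels give no anatomical direction, so that rows A and B are ventral and columns 5 to 7 the midline is a working name that was not tested against a map.

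All samples were total RNA of C57BL/6 male mice at postnatal day 56. Each voxel sample, described in the labels as pooled voxels, was hybridised on a 2-colour array against whole brain RNA. The midline group had 5, 6 and 6 arrays and the flank group 6, 12 and 12 arrays in datasets 1, 2 and 3, which are 3 independent harvests. Dataset 1 lacked position B5 and several flank positions. Voxel RNA carried Cy3 in datasets 1 and 3 and Cy5 in dataset 2, and the whole brain reference the other dye. A difference within a dataset cancels a dye bias that is the same on all its arrays. A whole voxel holds many cell types, so more cells of a type and more RNA per cell cannot be told apart.

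The base of the forebrain near the midline holds the hypothalamus and the preoptic area, where neurons make neuropeptides that govern feeding, stress, reproduction and body temperature. Several genes expressed from 1 parental copy, known as imprinted genes, are strongly expressed there, among them Ndn, Peg3 and Dlk1. Tissue further to the side at the base of the forebrain includes the piriform cortex, the amygdala and the lower striatum. Projection neurons of the cortex and striatum are rich in proteins of calcium and calmodulin signalling such as Nrgn and in the dopamine signalling protein DARPP-32, made from Ppp1r1b.

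The promoters of 3 of the 5 marker genes and of Baiap2, a gene with lower values in the midline, are shown because the results turn on these genes and because 3 of the 4 hold a well known motif. The sequences come from RefSeq (GRCm38.p6), 5′ to 3′ on the strand of the gene, and run from 250 bases before to 50 bases after the start. Capitals mark the cAMP response element TGACGTCA, which CREB binds, or the EGR motif GCGNGGGCG, which Egr1 binds, searched on both strands with no overlap between them. Peg3 (chr7:6730370-6730669, minus strand) and Cartpt (chr13:99900634-99900933, minus strand) each have 1 match to the first motif. Baiap2 (chr11:119942842-119943141, plus strand) has 3 matches to the second, and Ndn (chr7:62348027-62348326, plus strand) has 0 of either.
Ndn: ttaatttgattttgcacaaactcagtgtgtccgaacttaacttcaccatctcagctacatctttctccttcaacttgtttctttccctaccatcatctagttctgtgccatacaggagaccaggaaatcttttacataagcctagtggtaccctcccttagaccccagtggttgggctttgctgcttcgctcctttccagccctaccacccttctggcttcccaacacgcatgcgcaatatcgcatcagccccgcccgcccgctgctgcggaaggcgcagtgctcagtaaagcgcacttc
Peg3: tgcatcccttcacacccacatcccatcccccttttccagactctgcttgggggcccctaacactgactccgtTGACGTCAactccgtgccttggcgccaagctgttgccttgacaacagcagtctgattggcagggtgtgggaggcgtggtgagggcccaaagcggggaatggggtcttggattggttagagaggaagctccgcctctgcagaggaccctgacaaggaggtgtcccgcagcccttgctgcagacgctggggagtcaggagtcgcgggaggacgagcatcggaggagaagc
Cartpt: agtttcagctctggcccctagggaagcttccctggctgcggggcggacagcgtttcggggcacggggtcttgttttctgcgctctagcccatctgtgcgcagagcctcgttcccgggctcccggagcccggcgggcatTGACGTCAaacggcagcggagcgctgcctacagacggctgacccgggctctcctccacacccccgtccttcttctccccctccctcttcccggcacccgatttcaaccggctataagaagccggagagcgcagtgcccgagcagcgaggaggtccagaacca
Baiap2: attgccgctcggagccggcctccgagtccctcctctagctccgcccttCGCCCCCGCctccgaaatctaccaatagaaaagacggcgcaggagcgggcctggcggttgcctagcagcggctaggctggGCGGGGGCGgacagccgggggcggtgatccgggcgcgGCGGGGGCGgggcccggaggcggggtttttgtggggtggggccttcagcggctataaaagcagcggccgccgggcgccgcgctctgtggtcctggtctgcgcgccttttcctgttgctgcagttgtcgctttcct

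Among the promoters of all 27025 genes in the table, 1.85% hold TGACGTCA and 5.53% hold GCGNGGGCG. Of the 16 named genes with a promoter used here, 2 had the first motif. The second was in the promoters of 2 of 10 named genes with higher midline values (Vat1 and Metap1) and of 1 of 6 with lower midline values (Baiap2). A match is a run of letters and says nothing of binding.

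Values are the deposited log2 ratios after each array was centred on its median and rows of one symbol were averaged. The deposited ratios were already centred per gene by the authors. The values therefore rank positions of one gene and give no level against whole brain. Which channel was the numerator is not stated. That a higher value stands for more voxel RNA is likely, and every direction below rests on it. In rows A and B each array lost between 0.24% and 9.26% of its values. The lowest correlation between 2 arrays of rows A and B was -0.52 over all pairs, with 5.83% of the pairs under -0.3, and -0.28 within one dataset. The sign was left as deposited, since the dyes are stated and brain regions can oppose each other.

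The label of the midline group was set against the data over 11834 genes, by asking of each array whether it was more like the midline or the flank mean of the other datasets. Of the 17 midline arrays 15 were nearer the midline mean, and of the 30 flank arrays 21 were nearer the flank mean. The values compared were close to 0 on all arrays. They ran from -0.09 to 0.15 for the midline mean and from -0.06 to 0.04 for the flank mean. Some margins were narrow, as for A6 of dataset 3, at 0.0116 for the midline and 0.0128 for the flank mean. The 2 midline exceptions were B6 of dataset 1 and A6 of dataset 3. Of the 9 flank exceptions 8 lay in columns 4 and 8, next to the midline, and 1 was B9 of dataset 3. The array of B6 in dataset 1 also stood apart in single genes, and the differences of Ndn, Impact, Dlk1, Gpx3, Sparc, Egr1, Ppp1r1b and Vxn are given with and without it. Of the 17 genes with a symbol and a mean difference of 1 or more, leaving it out moved none by more than 0.21 (Ppp1r1b). Without it AW551984 differed by 1.77 ± 0.11, Vat1 by 1.75 ± 0.49 and Emb by 1.10 ± 0.37. Sdhb, with a smaller difference, moved further, from 0.68 to 0.38.

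Each gene was tested with 1 midline minus flank difference per dataset, so that n = 3. Among 15608 genes, 0 (0%) had an adjusted p under 0.05 in limma's moderated test, and the smallest adjusted p was 0.384. At an unadjusted p under 0.05 there were 817 genes with higher midline values (5.23%) and 743 with lower ones (4.76%), 1560 in all against 780.4 expected by chance. A second fit took the 47 arrays one by one with the dataset as a block and called 486 genes, 291 higher (1.86%) and 195 lower (1.25%). Arrays of one dataset are not independent samples, so the p-values of this second fit are too small. Genes that passed it are counted below as a description, with the fit named each time. Of the 8447 genes with a symbol, from which the gene lists are drawn, it called 2.84% as higher and 1.52% as lower.

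The marker genes had higher mean values in the midline for 5 of 5, although none passed the test over datasets. Ndn encodes necdin, a protein of the MAGE family made in neurons that have stopped dividing, and is expressed from the paternal copy. In dataset 1, Ndn had log2 ratios of 2.16 at A5, 1.65 at A6, 1.89 at A7, -0.36 at B6 and 2.17 at B7 in the midline, against a lowest, median and highest of 0.15, 0.50 and 1.23 in 6 flank arrays. In dataset 2, Ndn had a lowest, median and highest of 1.62, 1.94 and 2.21 in the midline, against -0.74, 0.47 and 1.66 in the flanks. In dataset 3 the same values of Ndn were 1.11, 1.85 and 2.03 in the midline, against -0.60, 0.52 and 1.48 in the flanks. Outside B6 of dataset 1, every midline array was above its dataset's flank median, and 14 of 17 lay above the highest flank array of their dataset. The share of all genes that separate to such a degree was not counted, here or for the genes below. The means of Ndn were 1.74 ± 0.23 in the midline and 0.55 ± 0.03 in the flanks (SD, n = 3 datasets), a difference of 1.18 ± 0.24 or 2.27-fold (adjusted p = 0.384 in limma over datasets, 6.48e-05 in the array-by-array fit). Without the B6 array the differences in datasets 1, 2 and 3 were 1.39, 1.40 and 1.23.

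Impact, a paternally expressed gene whose product restrains the amino acid sensor GCN2, was close in pattern. In dataset 1, Impact had 1.55, 1.56, 1.42, 0.27 and 1.46 at A5, A6, A7, B6 and B7, against a lowest, median and highest of 0.02, 0.64 and 1.12 in the flanks. In datasets 2 and 3 its midline medians were 1.72 and 1.07, against flank medians of 0.31 and -0.38. The groups overlapped through single arrays: 13 of 17 midline arrays exceeded the highest flank array of their dataset, and B6 of dataset 1 and B7 of dataset 3 were low. Impact differed by 0.95 ± 0.28 (1.93-fold, adjusted p = 0.384, array-by-array adjusted p = 5.84e-05). Its differences in datasets 1, 2 and 3 were 0.64, 1.04 and 1.17, and 0.89 in dataset 1 without B6. These values rest on 1 of the 2 spots for Impact, since the other was left out by the filter on missing values. With no such filter Impact differed by 0.53, so the size depends on the spot.

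Peg3, a paternally expressed zinc finger gene, had midline medians of 0.90, 1.16 and 0.65 in datasets 1, 2 and 3, against flank medians of 0.36, 0.48 and -0.13. In dataset 2 none of the 6 midline arrays exceeded the highest flank array, which was B8 at 1.23, while in dataset 3 all 6 did. Peg3 differed by 0.63 ± 0.18 (adjusted p = 0.41, array-by-array adjusted p = 6.5e-05). The array carries 3 spots for Peg3, which disagreed: they differed by 1.05 ± 0.16, 1.02 ± 0.35 and -0.18 ± 0.10, so the sign of the last is hidden in their mean.

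Gap43 and Cartpt separated the groups less. Gap43, a protein of growing axon tips, had midline medians of 1.37, 1.44 and 0.86 in datasets 1, 2 and 3, against flank medians of 0.99, 0.95 and 0.72, so it was high on both sides. Its difference was 0.38 ± 0.18 (adjusted p = 0.47, array-by-array adjusted p = 0.0522). Cartpt encodes the CART peptide, which lowers food intake. Cartpt differed by -0.01, 0.70 and 0.43 in datasets 1, 2 and 3, with a mean of 0.37 ± 0.36 (adjusted p = 0.51, array-by-array adjusted p = 0.161). The 6 midline voxels did not share its level: in dataset 3 Cartpt ran from -0.11 at A5 to 2.18 at B6. Its midline minus flank difference was 0.08 ± 0.37 in row A and 0.69 ± 0.53 in row B, and these did not pass a test of their difference (adjusted p = 0.68).

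**Figure D1:**
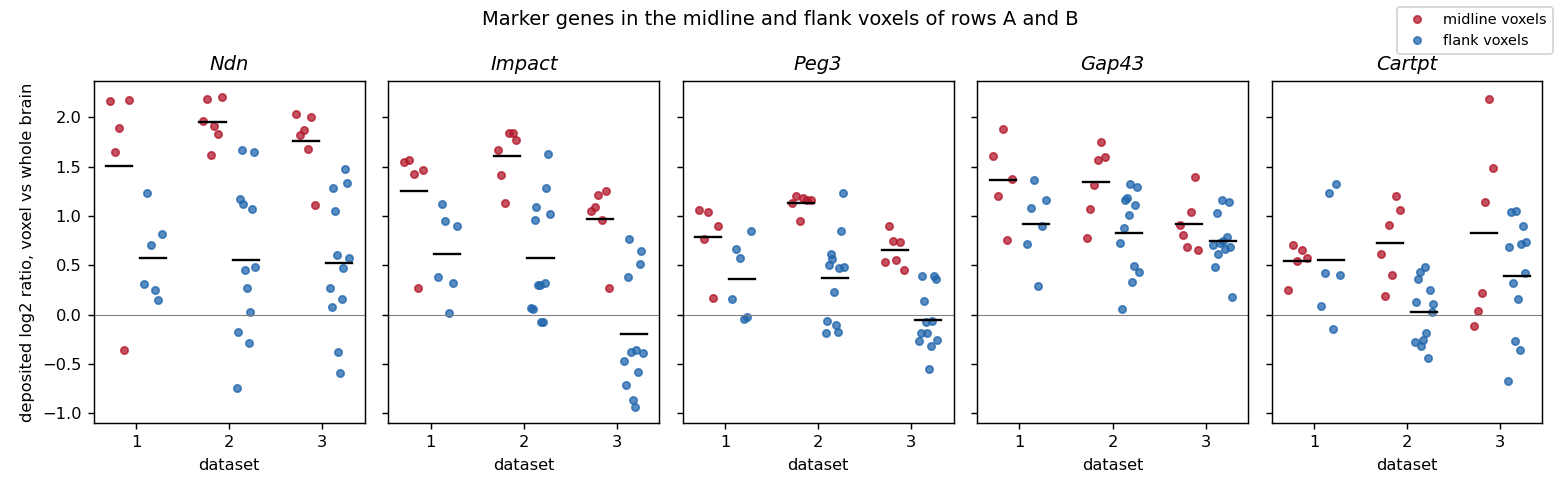
Log2 ratios of the 5 marker genes on each array of rows A and B, by dataset, with midline voxels left of flank voxels and black bars at the means. The array of B6 in dataset 1 is the midline point of Ndn at -0.36, and the groups of Gap43 and Cartpt overlap in every dataset.

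On the scale of the whole grid the midline voxels stood at the extremes for most of the named genes. With each dataset centred on the 56 positions that all datasets share, the 6 midline positions took all 6 of the highest 6 of 68 positions for Impact, AW551984, Vat1, Vat1l and Dlk1. They took 5 of the highest 6 for Ndn, Peg3, Gpx3, Sparc and Maged1, 4 for Gap43 and 3 for Cartpt. For Gap43 the highest position was C6, in the next row. At the other end, the midline positions took 5 of the lowest 6 for Chn1, Nrgn and Ppp1r1b and 4 of the lowest 6 for Egr1, Pde2a, Baiap2, Selenow and Tyro3. Vxn had 1 midline position among its lowest 6 and 5 among its lowest 12, and its lowest position was C7, at -2.70. Emb and Metap1 also differed from this, with 1 and 0 midline positions among the highest 6. The highest position of Emb was the midline voxel B7, at 1.10, and that of Metap1 was E7. Ranks of genes that were chosen for this difference are a description.

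**Figure D2:**
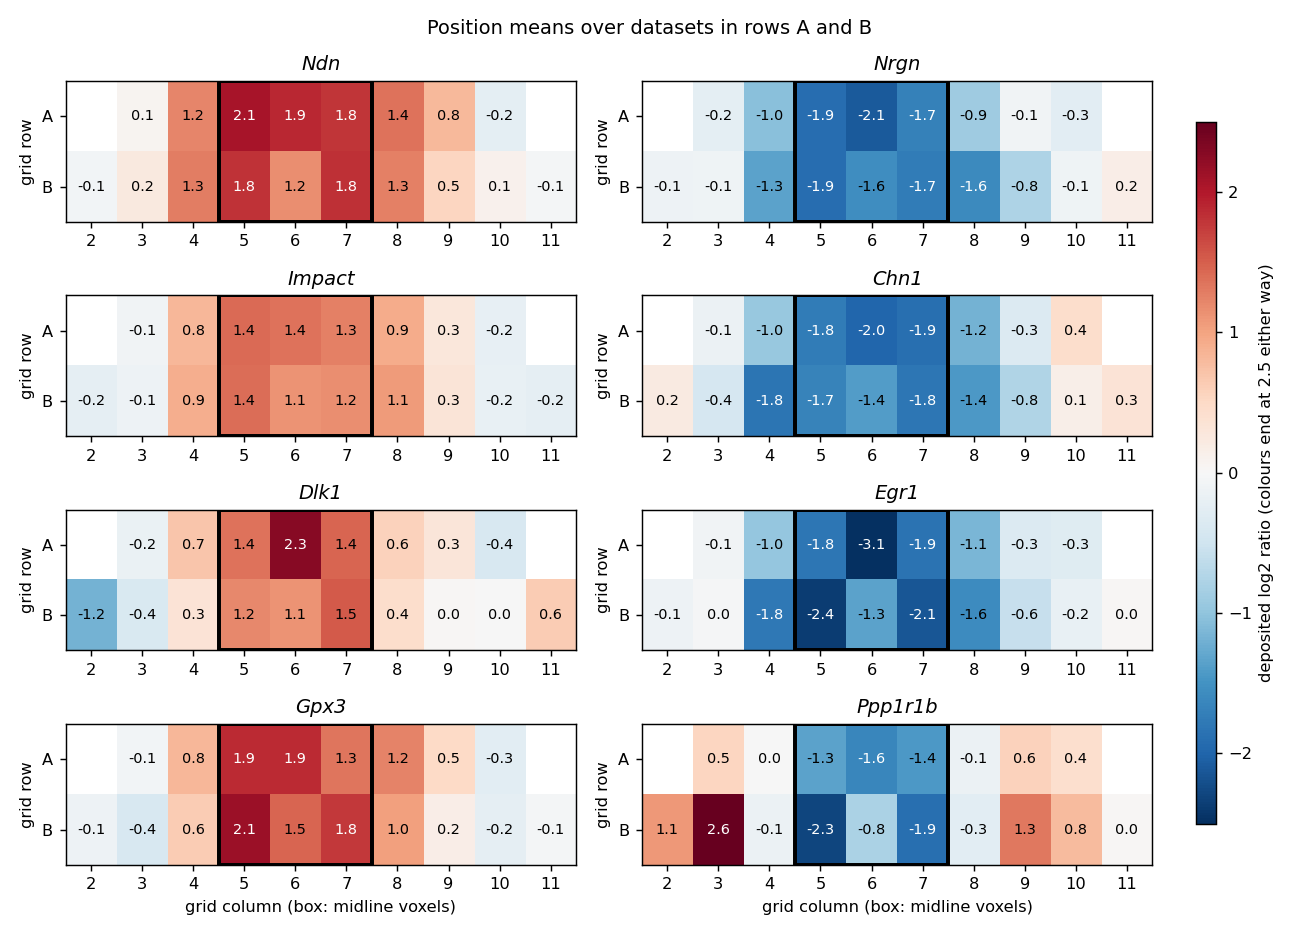
Mean log2 ratio over datasets, from deposited values centred per array, at each measured position of rows A and B for 8 genes. The midline voxels are boxed and colours end at 2.5 either way. Ndn, Impact, Dlk1 and Gpx3 are high inside the box and Nrgn, Chn1, Egr1 and Ppp1r1b are low there, with columns 4 and 8 in between for most of them.

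The largest differences with the same sign in 3 of 3 datasets were in 20 genes with a mean difference of 1 or more on the log2 scale, 8 higher in the midline (7 with a symbol) and 12 lower (10 with a symbol). On the higher side, AW551984, a gene with no role given here, averaged 2.32 ± 0.17 in the midline and 0.71 ± 0.32 in the flanks. Its difference of 1.61 ± 0.23, 3.05-fold, was the largest of all genes in that direction (adjusted p = 0.384). Vat1, a relative of a synaptic vesicle protein of the electric ray, averaged 1.75 ± 0.61 in the midline and 0.16 ± 0.73 in the flanks, a difference of 1.59 ± 0.34. In dataset 1 the lowest of the 5 flank arrays of Vat1 stood at -3.72, and how far the difference rests on it was not tested. Vat1 differed by 1.89 ± 1.19 in row A and by 1.04 ± 1.37 in row B. Its relative Vat1l averaged 1.52 ± 0.10 and 0.45 ± 0.16 in the midline and the flanks and differed by 1.08 ± 0.24.

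Dlk1, an imprinted membrane protein related to Notch ligands, had midline values in dataset 1 of 1.64 at A5, 2.31 at A6, 1.66 at A7, -0.44 at B6 and 2.09 at B7. Its midline medians in datasets 2 and 3 were 1.74 and 1.29, against flank medians of -0.04 and 0.23. Dlk1 was highest at A6 in each dataset. Its differences were 0.80, 1.88 and 1.20 in datasets 1, 2 and 3, with a mean of 1.29 ± 0.55, and the mean was 1.45 ± 0.38 without the B6 array. Gpx3, a secreted glutathione peroxidase, differed by 0.67, 1.77 and 1.59, a mean of 1.35 ± 0.59. On the array of B6 in dataset 1 Gpx3 stood at -0.87, while the other 4 midline arrays of that dataset lay between 1.37 and 1.67. Without that array Gpx3 differed by 1.16 in dataset 1 and by 1.51 ± 0.31 on average. Adjusted p over datasets was 0.384 for both genes.

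Sparc, a secreted matrix glycoprotein, averaged 1.13 ± 0.13 in the midline and 0.21 ± 0.24 in the flanks, a difference of 0.92 ± 0.22, or 0.99 ± 0.11 without B6 of dataset 1. Its 4 spots differed by 1.76 ± 0.29, 0.98 ± 0.16, 0.75 ± 0.44 and 0.18 ± 0.12, so the size depends on the spot. Maged1, which belongs to the same protein family as necdin, averaged 0.91 ± 0.14 in the midline and 0.04 ± 0.13 in the flanks. Emb, the cell adhesion protein embigin, differed by 0.94 ± 0.19, and Metap1, which removes the first methionine of new proteins, by 0.88 ± 0.14. For Metap1 the level itself moved with the dataset, with midline means of 0.72, 0.17 and -0.50 in datasets 1, 2 and 3, against flank means of -0.09, -0.61 and -1.54.

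On the lower side, Egr1, a transcription factor induced by neuronal activity, had midline values of -1.42, -2.17, -1.61, 0.18 and -1.48 at A5, A6, A7, B6 and B7 in dataset 1. The flank median of Egr1 there was -0.11. In datasets 2 and 3 its midline medians were -1.57 and -2.85, against flank medians of 0.11 and -0.91. All 12 midline arrays of datasets 2 and 3 lay below the lowest flank array of their dataset. In dataset 3 the margin was slight, with the midline array of A5 at -2.441 and the flank array of B4 at -2.439. This gap is below the largest array centring shift in rows A and B, 0.0832. The share of all genes that separate in this way was not counted. Egr1 differed by -1.51 ± 0.45, or 2.85-fold (adjusted p = 0.384, array-by-array adjusted p = 5.85e-06). In dataset 3 the array of A6 stood at -5.36, and Egr1 was low on the other 5 as well, between -3.26 and -2.44. Without B6 of dataset 1, where Egr1 stood above the flank median, the difference was -1.42 in that dataset and -1.64 ± 0.28 on average.

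Nrgn, neurogranin, which binds calmodulin in dendritic spines, had midline values of -1.47, -1.95, -1.14, -0.64 and -1.55 at A5, A6, A7, B6 and B7 in dataset 1, against a flank median of -0.29. In datasets 2 and 3 its midline medians were -1.58 and -2.35, against flank medians of -0.24 and -0.45. The groups of Nrgn did not overlap there. In dataset 3 they came close, with a highest midline array at -2.09 and a lowest flank array at -2.04. The share of all genes without overlap was not counted. Nrgn differed by -1.27 ± 0.39 (adjusted p = 0.384, array-by-array adjusted p = 4.66e-06). Chn1, a brake on the small GTPase Rac in neurons, averaged -1.73 ± 0.31 in the midline and -0.47 ± 0.06 in the flanks, a difference of -1.26 ± 0.31. All 17 midline arrays of Chn1 were below the flank median of their dataset. Its 2 spots differed by -1.20 ± 0.33 and -1.32 ± 0.28.

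Ppp1r1b, which encodes DARPP-32 of striatal projection neurons, had the largest difference of all genes, -1.92 ± 1.08, and also a wide spread, with -0.67, -2.48 and -2.59 in datasets 1, 2 and 3 (adjusted p = 0.41, array-by-array adjusted p = 5.39e-06). In dataset 1 its midline values were -0.65 at A5, -1.26 at A6, -1.21 at A7, 2.08 at B6 and -1.23 at B7. The array of B6 was therefore above the highest flank array of that dataset, 1.11 at B10. Without that array Ppp1r1b differed by -1.31 in dataset 1, and the mean was -2.13 ± 0.71 (adjusted p = 0.226 in limma over datasets). In datasets 2 and 3 no midline array of Ppp1r1b reached the lowest flank array. In those datasets the flanks were themselves uneven, with Ppp1r1b up to 2.64 and 2.52 at B3. How many of all genes separate in this way was not counted.

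The other named genes with lower midline values had a smaller spread over datasets. Vxn, which promotes neuronal differentiation, differed by -0.996 ± 0.102, or by -1.08 ± 0.24 without B6 of dataset 1. Pde2a, an enzyme that breaks down cyclic nucleotides in neurons, averaged -0.95 ± 0.30 in the midline and -0.01 ± 0.35 in the flanks. Baiap2, which shapes the actin of dendritic spines, differed by -1.06 ± 0.28, Selenow, a small selenoprotein, by -0.83 ± 0.11, and the receptor kinase Tyro3 by -0.79 ± 0.09. All had an adjusted p of 0.384 over datasets and passed the array-by-array fit, at 0.00332 for Baiap2 and 5.85e-06 for Selenow. Further genes of this size, named after their values were seen, were Olfm1, a secreted neuronal glycoprotein (-1.32 ± 0.67), the corepressor gene Rcor3 (-1.14 ± 0.60) and Arpp21, a phosphoprotein of striatal and cortical neurons (-1.11 ± 0.50). Aldh1a2 (-1.12 ± 1.23) and Slfnl1 (-1.44 ± 1.67) had an SD above their difference.

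**Figure D3:**
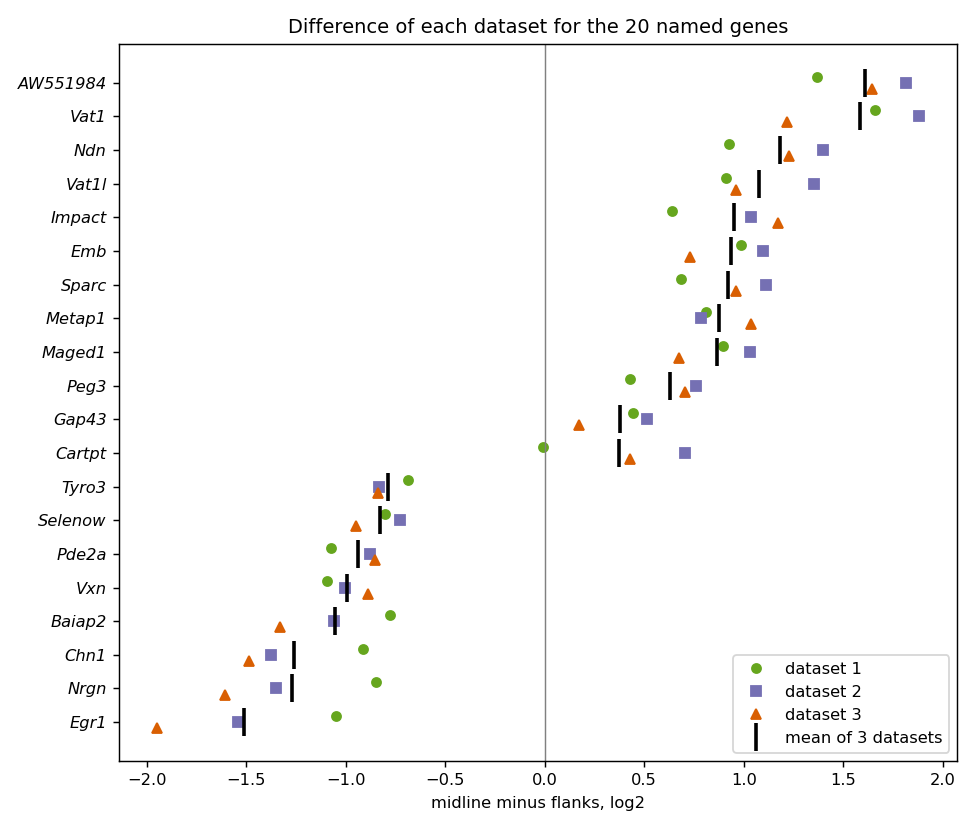
Midline minus flank difference in each dataset for the 20 named genes, on the log2 scale, with a bar at the mean of the 3 datasets. Cartpt in dataset 1, at -0.01, is the single point on the other side of 0 from its gene's mean, and dataset 1 has the smallest differences for Ndn, Impact, Chn1, Nrgn and Egr1.

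The means of most named genes were graded from the midline outward. Columns 4 and 8, next to the midline, were averaged apart from the columns further out. Ndn averaged 1.74 ± 0.23 in the midline, 1.23 ± 0.19 in columns 4 and 8 and 0.22 ± 0.12 further out. Impact averaged 1.28 ± 0.32, 0.94 ± 0.34 and 0.02 ± 0.53 in the same order, and Peg3 0.86 ± 0.25, 0.62 ± 0.26 and 0.03 ± 0.23. On the lower side Chn1 averaged -1.73 ± 0.31 in the midline, -1.27 ± 0.19 in columns 4 and 8 and -0.07 ± 0.14 further out, and Nrgn -1.79 ± 0.50, -1.24 ± 0.29 and -0.16 ± 0.15. In these 5 genes columns 4 and 8 were nearer the midline than the outer columns. Dlk1, at 1.50 ± 0.25, 0.56 ± 0.18 and 0.04 ± 0.53, and Ppp1r1b, at -1.46 ± 0.94, -0.09 ± 0.44 and 0.73 ± 0.50, had a sharper step at the edge of the midline. Columns 4 and 8 lay between the other zones for the means of 20 of 20 named genes and in each of the 3 datasets for 17 of them, against 43.7% of all 15601 genes with means in the 3 zones. The named genes were chosen for a midline difference, which favours this order.

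**Figure D4:**
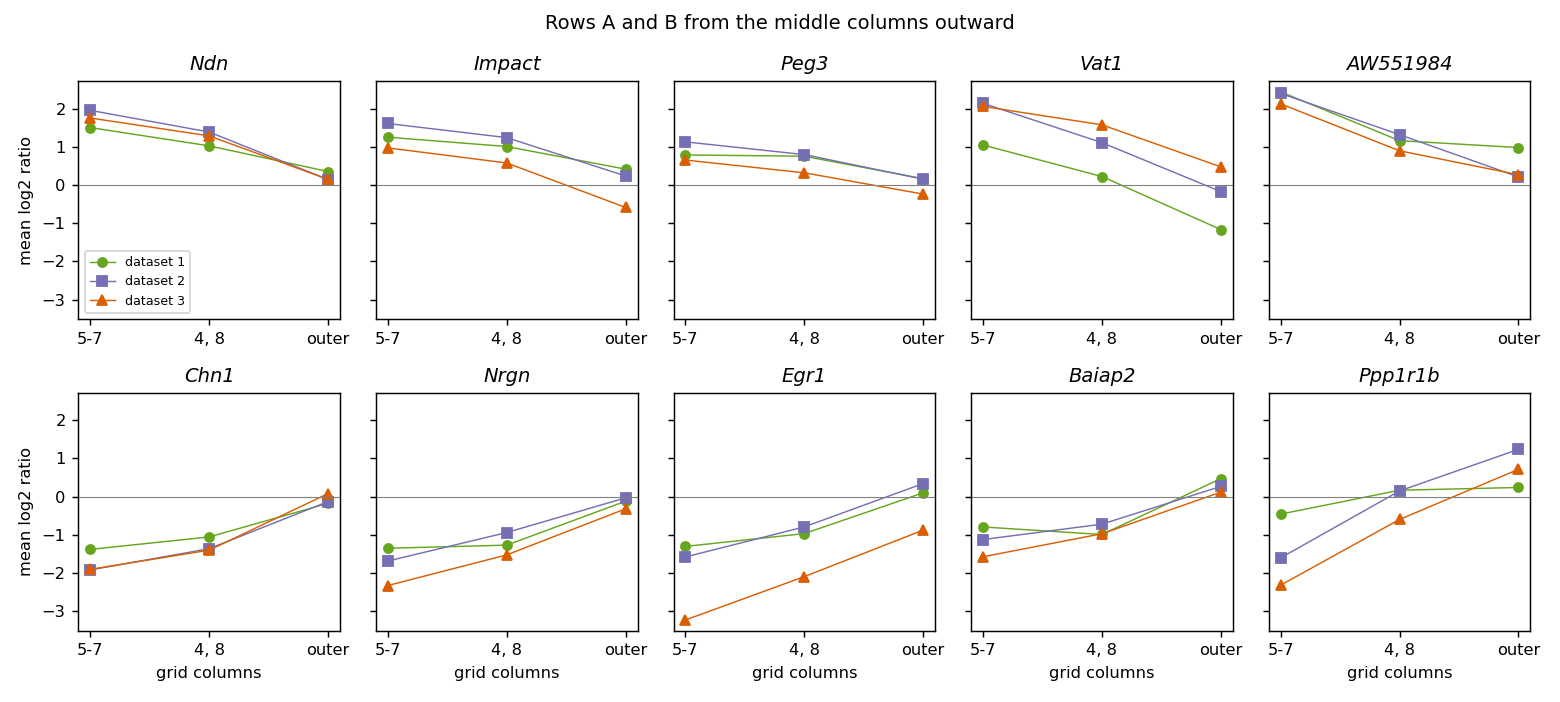
Mean log2 ratio of 10 genes in rows A and B in the midline (columns 5-7), in columns 4 and 8 and in the outer columns, with 1 line per dataset. Ndn averages 1.74, 1.23 and 0.22 and Ppp1r1b -1.46, -0.09 and 0.73 in that order.

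Gene lists were described by how many measured members had a higher mean in the midline, beside 49.5% of all genes tested, whose median difference was -0.0027, and 53.1% of the genes with a symbol, whose median was 0.01. The lists were chosen with earlier results of these data known, so their counts are a description and not evidence of enrichment. No member of any list passed the test over datasets. Of 32 measured imprinted genes 17 were above 0, with a median of 0.01, close to the share and median of all genes with a symbol. An unadjusted p under 0.05 was reached by 8 of the 32 with higher midline values and by 0 with lower ones, beside 7.04% and 4.39% of the genes with a symbol. In the array-by-array fit 7 of the 32 were higher, beside 2.84% of the genes with a symbol: Dlk1, Ndn, Impact, Peg3, the insulin receptor adaptor Grb10 (0.94 ± 0.34), the phosphoinositide phosphatase Inpp5f (0.73 ± 0.16) and Blcap (0.65 ± 0.07). For the last 3, the imprinting is known for certain tissues or transcripts, and the spots do not tell transcripts apart. Ndn, Impact and Peg3 are also markers of this comparison, so the counts of imprinted genes are a description and not separate evidence. Of the Bex and Maged family, X-linked and MAGE genes of neurons, 9 of 9 were above 0 with a median of 0.33. This family includes the marker Ndn and the named gene Maged1. Bex2 differed by 0.48 ± 0.17.

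The peptides that define hypothalamic neurons were poorly covered. Of 35 peptide and receptor genes 8 were measured, and 3 of them were above 0: Cartpt, Nucb2, the precursor of nesfatin (0.33 ± 0.32), and the growth hormone receptor gene Ghr (0.01 ± 0.22). In the array-by-array fit 0 of the 8 passed in either direction. Of the hypothalamic transcription factors 5 of 9 measured were above 0, and Ndn and Peg3, which the list shares with the markers, passed the array-by-array fit as higher. That fit called 2.84% of the genes with a symbol as higher and 1.52% as lower. Meis2, a homeodomain factor that striatal neurons also make, passed it as lower (-0.83 ± 0.44). Its 2 spots differed by -0.51 ± 0.62 and -1.14 ± 0.28. Of the genes for the secretory pathway of neuropeptides 6 of 7 were above 0, with Pcsk1n, which encodes an inhibitor of the prohormone convertase PC1, at 0.64 ± 0.12. Of 12 pituitary genes 0 were measured.

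Genes of cortical and striatal projection neurons had mostly lower mean values in the midline. Of 15 measured cortical genes 1 was above 0 and the median was -0.35. In the array-by-array fit 7 were lower and 0 higher, beside 1.52% and 2.84% of the genes with a symbol: Egr1, Nrgn, Chn1, Rcor3, Vxn, the transcription factor Bcl11b (-0.82 ± 0.29) and the repressor Zbtb18 (-0.73 ± 0.10). The mean over the list was -0.76, -0.99 and -0.92 in the midline of datasets 1, 2 and 3, against -0.25, -0.42 and -0.24 in the flanks. Of 11 striatal genes 3 were above 0, with a median of -0.57, and 5 passed the array-by-array fit as lower, which were Ppp1r1b, Arpp21, Arpp19, Meis2 and Bcl11b. Of 17 genes of calmodulin and calcium signalling 2 were above 0. Nrgn, Chn1, the kinase genes Camk4 (-0.93 ± 0.63) and Camk1d, the calcineurin gene Ppp3ca (-0.84 ± 0.23) and Caln1 (-0.66 ± 0.19) passed the array-by-array fit as lower. These 3 lists share members and were chosen with earlier results of these data known, so their counts are not separate evidence. Of 16 genes of the piriform cortex, amygdala and olfactory tubercle 4 were above 0 and 0 passed the array-by-array fit. The 2 with the largest differences were Prss23 (-0.64 ± 0.12) and the receptor kinase gene Kit (-0.38 ± 0.40). The 2 spots of Kit differed by -0.11 ± 0.35 and -0.65 ± 0.47.

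Among glial and housekeeping lists the astrocyte genes had the largest median, close in size to that of the cortical genes (-0.35) but positive. Of 15 measured astrocyte genes 13 were above 0, with a median of 0.32, and Sparc, Sparcl1 (0.53 ± 0.14), Dbi (0.64 ± 0.19), Aldoc (0.43 ± 0.18) and the glutamate transporter gene Slc1a3 (0.35 ± 0.25) passed the array-by-array fit. The mean over the astrocyte list was 0.47, 0.39 and 0.09 in the midline of datasets 1, 2 and 3, against 0.18, -0.03 and -0.14 in the flanks. The part of astrocyte content in the other differences was not tested. Of 74 ribosomal protein genes 69 were above 0, with a median of 0.24, and 11 passed the array-by-array fit as higher (beside 2.84% of the genes with a symbol), among them Rpl3 (0.62 ± 0.10), Rpl10 (0.51 ± 0.11) and Rps6 (0.44 ± 0.10). Of 70 genes of oxidative phosphorylation 49 were above 0, with a median of 0.08. Of the myelin list 8 of 11 were above 0, of vascular cells 9 of 12 and of blood 3 of 5, and none of these passed the array-by-array fit in either direction. Markers of thalamus were above 0 in 5 of 8, of inhibitory neurons in 2 of 3, of cholinergic and aminergic neurons in 2 of 3, of choroid plexus in 2 of 5, of meninges in 4 of 12 and of microglia in 4 of 8, and none passed either. Of 12 tanycyte and ependymal genes 7 were above 0. The 2 with the largest differences were Hopx, a homeodomain protein without DNA binding, which was lower in the midline (-0.82 ± 0.44), and Rarres2 (0.64 ± 0.49), and neither passed the array-by-array fit. The 1 that passed it was Tm4sf1 (0.41 ± 0.01), named after its value was seen. Its 2 spots differed by 0.52 ± 0.18 and 0.20 ± 0.28, so the SD of their average is smaller than that of either spot.

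The 2 members with the largest differences in the remaining lists passed neither fit, except Rpl3 above. They were the ribosomal protein relative Rps27l (0.62 ± 0.37) and the respiratory chain genes Sdhb (0.68 ± 0.49) and Cox7a2l (0.50 ± 0.05). Without B6 of dataset 1 Sdhb differed by 0.38 ± 0.18. For myelin the members were Ndrg1 (0.42 ± 0.25) and Cryab (0.38 ± 0.11). For vascular cells these were Itm2a (-0.28 ± 0.33) and Myl9 (0.24 ± 0.12), for blood Bpgm (-0.18 ± 0.16) and Slc4a1 (0.11 ± 0.39), and for microglia C1qa (0.41 ± 0.72) and Cst3 (0.39 ± 0.07). Among neuronal markers they were Tcf7l2 (0.53 ± 0.16) and Prkcd (0.28 ± 0.50) for thalamus, Sst (-0.19 ± 0.03) and Slc32a1 (0.12 ± 0.37) for inhibitory neurons, and Hdc (0.43 ± 0.74) and Th (0.35 ± 0.33) for cholinergic and aminergic neurons. For choroid plexus they were Folr1 (-0.36 ± 0.30) and Calml4 (0.34 ± 0.80), and for meninges Aldh1a2, given above, and Col1a1 (-0.36 ± 0.57).

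**Figure D5:**
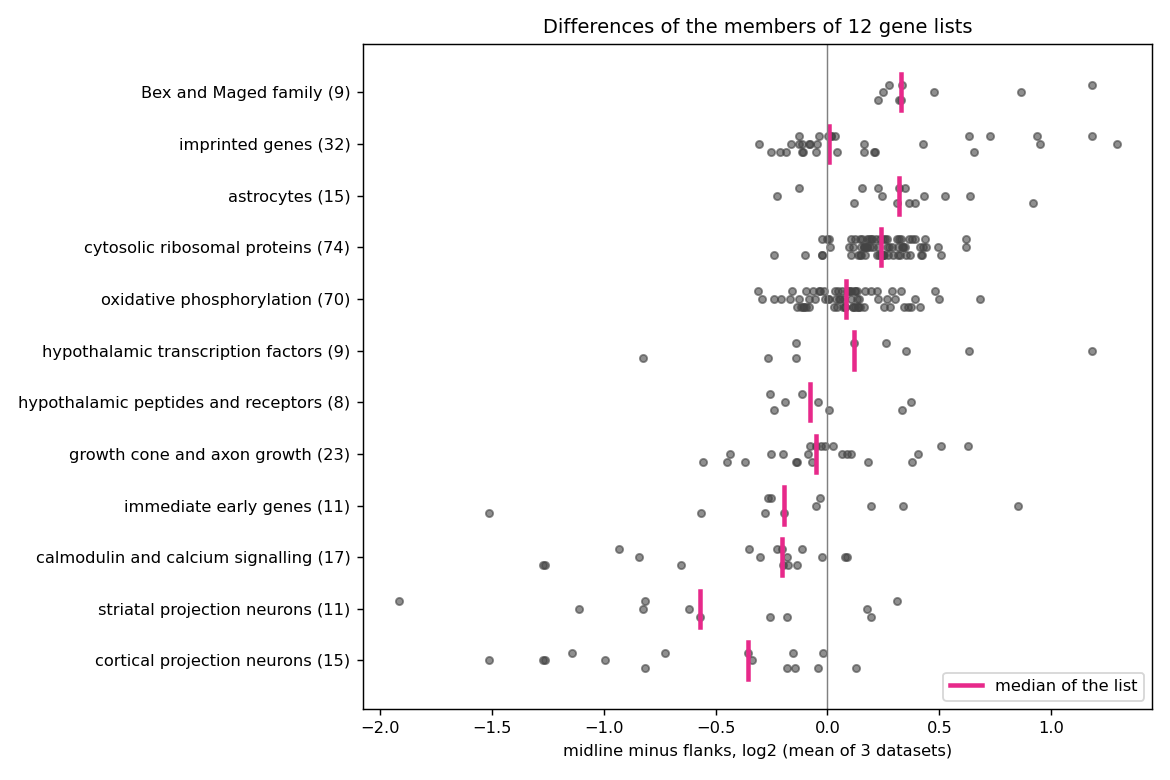
Midline minus flank difference of each measured member of 12 gene lists, with the number measured in brackets and a bar at the median of the list. The Bex and Maged family lies wholly above 0, ribosomal proteins centre on 0.24, and cortical and striatal genes reach down to -1.51 and -1.92.

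Lists of immediate early and growth genes were divided. Of 11 immediate early genes 3 were above 0, and Egr1 and Arc (-0.57 ± 0.19), which encodes a synaptic protein, passed the array-by-array fit as lower. Jund had a mean of 0.85 ± 1.71 that came from dataset 1, with 2.82, -0.10 and -0.17 in datasets 1, 2 and 3. Of 23 growth cone genes, the group to which Gap43 belongs, 9 were above 0. Sncg (0.63 ± 0.43), Tmsb10 (0.51 ± 0.06) and Crmp1 (0.41 ± 0.14) were higher in the array-by-array fit, and the neurofilament gene Nefl (-0.56 ± 0.17) and the semaphorin receptor gene Plxna2 (-0.45 ± 0.15) were lower. Of all genes with a symbol, that fit called 2.84% as higher and 1.52% as lower, and its p-values are too small.

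The limits of the comparison were tested in 4 ways, and limma called 0 genes in each. The midline effect was set against itself between rows A and B over 15474 genes (0% called, 730 at an unadjusted p under 0.05). The smallest p-values were those of Wnt6 (1.31 ± 0.08), Pbk (1.32 ± 0.14) and Baz1b (1.37 ± 0.23) with a larger effect in row A and of Shisal1 (-1.56 ± 0.68), Zfp472 (-1.12 ± 0.40) and Dmac2 (-1.14 ± 0.49) with a larger one in row B. The sides of the flank group, columns 2 to 4 minus columns 8 to 11, were compared over 15572 genes (0% called, 263 at an unadjusted p under 0.05, with 778.6 expected by chance). The smallest p-values were those of Gpat4 (0.94 ± 0.26), Mitd1 (0.89 ± 0.31), Tyw5 (0.81 ± 0.23), Adpgk (-0.76 ± 0.22), Izumo1r (-0.65 ± 0.09) and Rfx3 (-0.96 ± 0.53). Against each side alone, Ndn differed by 1.13 from columns 2 to 4 and by 1.21 from columns 8 to 11. Among the 6 midline positions 13878 genes were tested (0% called, 305 at an unadjusted p under 0.05, with 693.9 expected by chance), and the smallest p-values were those of Fmr1nb, Fbxl6 and Aass (adjusted p = 0.998).

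Whether the pattern belongs to rows A and B was tested by subtracting the same middle-minus-side difference of rows C to G, over 15147 genes. Again 0% were called, and 1090 passed an unadjusted p of 0.05, with 757.4 expected by chance. Ndn differed by 1.18 ± 0.24 in rows A and B and by 0.27 ± 0.36 in rows C to G, a gap of 0.91 ± 0.45 (adjusted p = 0.682). The gap was 0.79 ± 0.21 for Impact and 0.58 ± 0.24 for Peg3, while it was 0.10 ± 0.30 for Gap43 and -0.13 ± 0.53 for Vxn. The smallest p-values with higher midline values were those of Gpx3 (1.46 ± 0.26), Dlk1 (1.38 ± 0.36) and AW551984 (1.24 ± 0.34), and with lower ones those of Lep (-0.83 ± 0.002), the zinc transporter gene Slc30a3 (-0.70 ± 0.12) and Homer2 (-0.77 ± 0.24). None passed, so no gene can be called particular to rows A and B.

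The datasets did not weigh equally. Over all genes the differences of datasets 2 and 3 correlated at 0.31, those of datasets 1 and 2 at 0.20 and those of datasets 1 and 3 at 0.07, given as descriptions across 15608 genes. Without dataset 1, which has the fewest arrays, limma called 37 genes, 20 higher and 17 lower. Among them Ppp1r1b had an adjusted p of 0.000558 and a difference of -2.54 ± 0.08, and AW551984 and Gpx3 had 0.00576 each. Ndn (0.013), Dlk1 (0.0205), Vat1 (0.0205) and Impact (0.0238) passed as higher, and Egr1 (0.0061), Nrgn (0.00825) and Chn1 (0.00825) as lower. That test has 2 datasets. Leaving out the B6 array of dataset 1 alone gave 0 called genes, with a smallest adjusted p of 0.123, and brought the correlation of datasets 1 and 2 to 0.26.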

How the data were processed

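The authors deposited 1 table of log2 ratios (voxel against whole brain RNA on 2-colour arrays, per the labels), with 20847 rows and 192 columns. Per the labels' protocols, RNA was extracted with Trizol, reverse transcribed and coupled to Cy dyes. Scanner, background correction and normalization were not given in the sources used here. In the deposited log2 values 99.9% of rows had a median within 0.001 of 0, so genes were centred. The floor of -6.64 was treated as missing.

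Each array was centred on the median of the 7961 rows measured on every array (largest shift in rows A and B 0.0832). Control spots and rows measured on under 80% of a dataset's arrays were left out, and rows of one symbol were averaged, which left 15608 genes, 8447 with a symbol from the platform annotation. The number of arrays limits the precision. limma 3.58.1 in R 4.3.3 tested, two-sided, 1 midline minus flank difference per dataset with Benjamini-Hochberg adjustment, and was tested on simulated data. Dataset numbers name separate harvests and pair the groups: deviations of the zone means correlated at 0.44, 0.70 and 0.77 in datasets 1 to 3. SDs are over datasets. The p-values over datasets rest on the spread between these 3 datasets, moderated by limma over all genes. Those of the array-by-array fit and of the test among midline positions rest on the spread between arrays. The alternatives were other normalizations, filters, flank definitions, left-out datasets and an array-by-array fit with the dataset as a block.

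Named genes are the 5 markers, the 8 with a symbol and the smallest p in each direction, the 2 members of each list with the largest difference, and the 3 with the smallest p in each direction of the other tests. Other list members that passed the array-by-array fit, and genes with a difference of 1 or more, were named after their values were seen. The members and lists were chosen with earlier results of these data known. For promoters, the start nearest to the gene's 5′ end was taken.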

Additional observations from a re-analysis of the deposited data

Results flagged for a closer look

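In 10 of 80 groups of arrays, each being 1 gene in 1 zone of 1 dataset, the lowest or highest array stood far from its group, where chance gives about 1 in 20, or 4. The flank groups of datasets 2 and 3 have more arrays than the rule covers and were not screened. Of the 10 flagged groups 4 rest on the array of B6 in dataset 1. Ndn stood at -0.36 there (other midline arrays 1.65 to 2.17), Impact at 0.27 (1.42 to 1.56), Sparc at 0.26 (1.22 to 1.56) and Vxn at -0.94 (-2.51 to -2.13).

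The other 6 lay on different arrays. Among midline arrays, Peg3 stood at 0.95 at A7 of dataset 2 (others 1.13 to 1.20), Impact at 0.27 at B7 of dataset 3 (0.96 to 1.25), Egr1 at -5.36 at A6 of dataset 3 (-3.26 to -2.44) and Tyro3 at -1.99 at B6 of dataset 2 (-1.09 to -0.72). Among flank arrays, Emb stood at 0.48 at A9 of dataset 1 (-0.49 to -0.20) and Baiap2 at 2.80 at B11 of dataset 1 (-1.59 to 0.03). The causes were not tested.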

How the results depend on the processing

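The count of called genes for midline minus flanks stayed at 0 under no centring, quantile normalization, floor values kept, both other filters, separate rows, positions of all 3 datasets, zone medians, limited values, either flank side, either grid row and no replicate block. Without each replicate in turn the counts ran from 0 to 37, with 37 without replicate 1. The fits with a replicate block on arrays one by one called 486 genes, 566 with position as a random block, 626 with quantile normalization, 590 without B6 of dataset 1, and between 27 and 433 without each replicate (27 without replicate 2, 133 without replicate 3). For rows A and B against rows C to G the counts without each replicate ran from 0 to 83, with 83 without replicate 1, and from 0 to 0 for row A against row B and for the flank sides. It was 0 without row D columns 1 to 7 of dataset 2, an alternative added because these arrays correlated with the other datasets at 0.10 as labelled and 0.22 in reversed order. With flanks that leave out columns 4 and 8 the main count was 0. This alternative, those on B6 and row D, the random position block, and the array-by-array fits with quantile normalization or without a replicate were chosen after seeing the data. Of 517 values of named genes under alternatives 516 kept their direction. The exception was 1 of the 3 rows of Peg3, at -0.18. Most named genes were chosen by their p in that direction and the alternatives reuse the same arrays. Both favour a kept direction, so this count is a description. The cause of the calls without dataset 1 was not tested. A fit without arrays missing over 10% of values was not run, because no array of rows A and B did. Arrays give no read depth.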

Other observations

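Genes called without dataset 1 that the comparisons above do not describe included Tppp3, a tubulin polymerization protein, at 1.29 ± 0.12 (adjusted p = 0.013), Aga, a lysosomal enzyme, at 1.11 ± 0.21 (0.0312), Prmt2, an arginine methyltransferase, at 1.06 ± 0.22 (0.0331) and Fxyd6, a regulator of the sodium pump, at 1.02 ± 0.14 (0.0331). Rarres2, which encodes chemerin and is described above, was called at 0.92 ± 0.09 (0.0415). Over all 3 datasets it differed by 0.64 ± 0.49, with 0.08 in dataset 1. On the lower side were Celf2, an RNA binding protein, at -1.09 ± 0.02 (0.0238), Wipf3 at -1.10 ± 0.28 (0.0331), the growth factor gene Tgfa at -1.03 ± 0.19 (0.0331) and Lmo7 at -0.94 ± 0.12 (0.04). Apart from the values of Rarres2 over 3 datasets and in dataset 1, these are limma values on 2 datasets (mean and SD, n = 2). None of these genes passed with all 3.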
